A study of Mus musculus with 10 samples.

Results

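Neuroendocrine cells are rare secretory cells of the airway epithelium, and 9 genes used to recognise them were followed here in lung squamous cell carcinoma (SCC) of mice lacking Lkb1. The genes were Calca, Chga, Chgb, Syp, Uchl1, Ncam1, Insm1, Resp18 and Scg5, 9 of the 19096 genes that the probes of the array could be paired with. A probe counted for a gene when its RefSeq transcript belonged to that gene, which gave 15 probes, and where a gene had several probes the probe with the highest mean over all 10 arrays was taken. Of the genes, 7 had 1 probe, and Calca and Ncam1 had several. The control group was whole lung of 5 wild-type (WT) mice that carried the floxed allele without Cre (Lkb1f/f), and the tumour group was 5 SCCs from CCSPiCreLkb1f/f mice, in which Cre under the promoter of CCSP, a secretory protein of club cells, deletes Lkb1. All mice were of the strain labelled B6.129 and aged 13 months. Lkb1, also named Stk11, is a tumour suppressor kinase. The labels describe no treatment, and each sample was 1 single-colour array. The comparison asked whether the tumours kept, gained or lost expression of neuroendocrine genes.

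Neuroendocrine cells store peptide hormones and amines in dense-core granules and release them when intracellular calcium rises. Granins such as chromogranin A and B and secretogranin V pack the granules or guard the enzymes that cut prohormones, synaptophysin sits in the membrane of small vesicles, and Calca encodes calcitonin and the calcitonin gene-related peptide (CGRP), a typical product of lung neuroendocrine cells. In the lung these cells occur singly or in small clusters in the airway epithelium, and they are the cells from which small cell lung carcinoma usually arises, whereas squamous carcinoma is built of keratin-rich cells. Several of these genes are also used by neurons, and whole lung contains nerve fibres.

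Expression is given as the log2 of the quantile-normalized intensity, a scale on which a step of 1 is a 2-fold change and on which levels of different probes cannot be set against each other. Differences are SCC minus WT, fitted with limma, with the p-value adjusted over all 30374 probes tested, and a gene was called when the adjusted p was below 0.05 and the difference at least 2-fold. Probes entered the test if 4 or more of the 5 WT arrays or of the 5 SCC arrays read them well above background. SCC replicate 5 stood apart, with 90.2% of its probes well above background against 71.0% to 74.5% on the other 9 arrays. The lowest normalized value of a probe well above background was 2.14 on that array and between 3.81 and 4.32 on the others, so the lower end of the scale differs there. The differences of the neuroendocrine genes are therefore given with and without it. The labels do not say whether each SCC came from a different mouse, so the p-values measure the spread between these samples. The tissue labels were checked with squamous and basal markers, and all 6 tested (Krt5, Krt14, Trp63, Krt6a, Sprr1b and Dsg3) were called higher in SCC.

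Among the 9 neuroendocrine genes, 8 were tested and 3 were called, all of them lower in SCC. They were Chgb, Uchl1 and Scg5, while none was called higher. Among all tested genes, with 1 probe a gene, 24.9% were called, 13.4% lower and 11.6% higher in SCC, and among all tested probes 22.9% were called, 13% lower and 9.92% higher. The median difference of the 8 genes was -0.79, against -0.04 over all tested genes, with 6 of the 8 differences below 0 and 2 above. Scaling of each array to its 75th percentile instead called 3504 probes higher and 3080 lower, against 3014 and 3940 after quantile normalization, and moved the median difference of all probes from -0.09 to 0.03. Under that scaling 3 of the 8 genes were called and none of them was higher, whereas 0 were called with normexp background correction, where Chgb, Uchl1 and Scg5 passed the adjusted limma test at under 2-fold, and 0 with slide as a fixed block. At an unadjusted p below 0.05, limma gave 5 and 3 genes under these settings. At an unadjusted p below 0.05 limma found 1 neuroendocrine gene higher, Calca, and 4 lower. Groups did not overlap for 2 of the 8 genes, Chgb and Uchl1, and for 41.2% of all tested genes. In whole tissue, fewer cells of a type and less RNA per cell cannot be told apart.

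**Figure D1:**
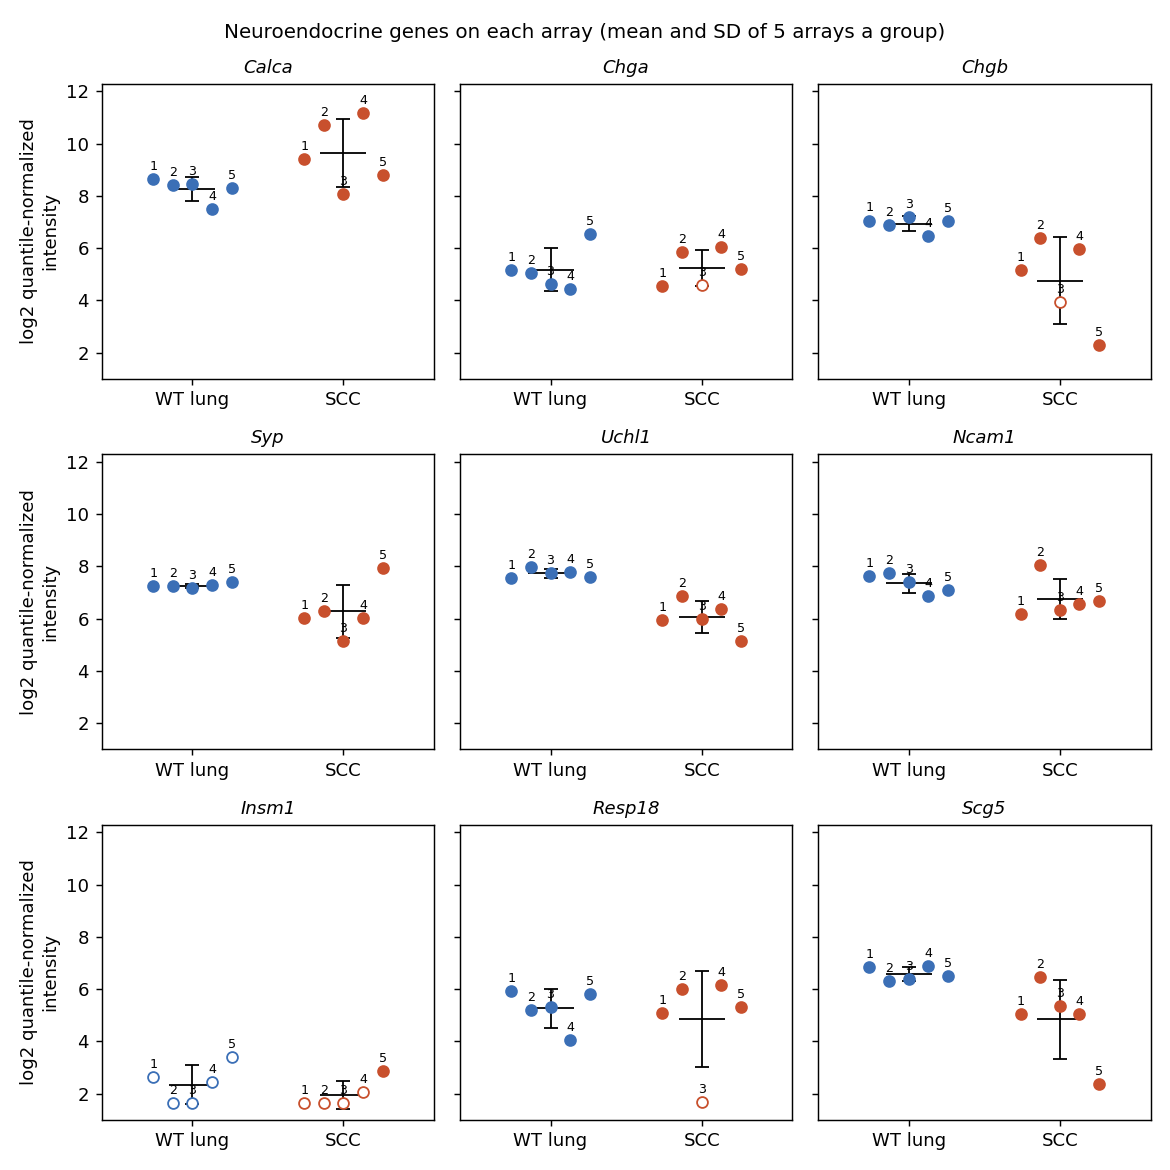
Levels of the 9 neuroendocrine genes on each array, as log2 quantile-normalized intensity on the vertical axis, for 5 WT lungs and 5 SCCs with replicate numbers beside the points. Filled points were well above background, open points were not, and bars give the mean and SD. Chgb and Uchl1 do not overlap between the groups, and Insm1 is filled on SCC replicate 5 alone.

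The regions just upstream of 4 of these genes are shown first, since Chgb, Scg5 and Uchl1 were called lower in SCC while the selected Calca probe lay higher without passing the test, its direction depending on the probe. They are the 250 bases before the start of the gene in RefSeq, assembly GRCm38.p6, read 5′ to 3′ on the strand of the gene. The capitals mark the letters TGACG or its complement CGTCA, the core that the cAMP response element binding protein CREB recognises. Calca lies on chr7:114636358-114636607 on the minus strand, Chgb on chr2:132781392-132781641 on the plus strand, Scg5 on chr2:113829092-113829341 on the minus strand and Uchl1 on chr5:66675871-66676120 on the plus strand.
Calca: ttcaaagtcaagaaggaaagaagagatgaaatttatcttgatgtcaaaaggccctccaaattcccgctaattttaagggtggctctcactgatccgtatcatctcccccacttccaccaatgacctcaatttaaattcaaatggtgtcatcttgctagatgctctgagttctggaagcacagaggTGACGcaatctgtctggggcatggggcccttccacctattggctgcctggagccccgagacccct
Chgb: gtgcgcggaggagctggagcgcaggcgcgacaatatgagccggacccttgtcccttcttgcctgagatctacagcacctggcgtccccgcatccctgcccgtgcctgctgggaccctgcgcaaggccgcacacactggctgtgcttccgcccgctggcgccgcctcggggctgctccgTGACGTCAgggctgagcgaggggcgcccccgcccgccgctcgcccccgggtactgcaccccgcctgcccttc
Scg5: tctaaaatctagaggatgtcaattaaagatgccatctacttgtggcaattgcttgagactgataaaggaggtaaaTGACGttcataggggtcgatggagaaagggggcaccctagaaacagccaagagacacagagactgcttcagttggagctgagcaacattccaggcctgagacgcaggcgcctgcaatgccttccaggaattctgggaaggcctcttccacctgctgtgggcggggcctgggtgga
Uchl1: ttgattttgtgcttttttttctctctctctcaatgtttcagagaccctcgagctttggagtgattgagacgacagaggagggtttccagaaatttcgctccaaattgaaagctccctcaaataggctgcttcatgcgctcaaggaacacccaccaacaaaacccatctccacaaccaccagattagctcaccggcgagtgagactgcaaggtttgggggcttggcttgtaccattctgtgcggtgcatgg
The core was present in Calca at 65 bases before the start, in Chga at 44, in Chgb at 72 and in Scg5 at 175, and these letters were not in the windows of Syp, Uchl1 and Resp18. Promoter windows were found for 7 of the 9 genes, the entries for Ncam1 and Insm1 being absent from the table. In Chgb it formed the whole palindrome TGACGTCA, in which both strands carry the core. Among all 32851 windows of the same length, 17.8% held the core on either strand and 1.55% held the palindrome. The E-boxes CAGCTG and CAGGTG, both strands searched, were present in Chga, Chgb, Resp18 and Scg5, and in 27.7% of all windows. A match describes the letters and is no evidence that a factor binds there.

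The granin Chgb, a major protein of the dense-core granule, had the largest difference of the 8 tested genes. Its levels in WT were 7.06, 6.88, 7.21, 6.47 and 7.05 in replicates 1 to 5, and in SCC 5.16, 6.38, 3.94, 5.97 and 2.28. Every SCC lay below every WT lung, replicate 2 lay just under the lowest WT value, and the probe was not well above background on SCC replicate 3. The means were 6.93 ± 0.28 (SD, n = 5) in WT and 4.74 ± 1.66 (SD, n = 5) in SCC, a difference of -2.19 with a standard error of 0.69 and a 95% interval from -3.72 to -0.66. That is a 4.56-fold lower level (limma adjusted p = 0.0241, and p = 0.00794 by an exact two-sided permutation test, the smallest p that 252 splits of the arrays can give). Without SCC replicate 5 the difference was -1.57 with a limma adjusted p of 0.0138. The call was lost without WT replicate 3, at an adjusted p of 0.0519, and without SCC replicate 3, at 0.0561.

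Scg5, which encodes the chaperone 7B2 of the prohormone convertase PC2, was called lower on less even values. Its levels were 6.86, 6.32, 6.40, 6.89 and 6.50 in WT and 5.05, 6.46, 5.36, 5.03 and 2.35 in SCC. SCC replicate 2 lay within the WT range, the other 4 SCCs lay below it, and replicate 5 was lowest. The difference was -1.74 with a standard error of 0.63 and a 95% interval from -3.14 to -0.35, a 3.35-fold lower level (limma adjusted p = 0.0415, exact permutation p = 0.0238). Leaving out SCC replicate 5 moved it to -1.12, a change of more than 1.5 times, while the limma adjusted p was 0.0104. Without SCC replicate 2 the difference was -2.15 with an adjusted p of 0.0106, and with any other array left out the adjusted p lay between 0.0536 and 0.0813.

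Chga, which encodes chromogranin A, the granin most used to stain neuroendocrine tumours, showed no difference that passed the test. In WT its levels were 5.17, 5.05, 4.64, 4.44 and 6.55, and in SCC 4.56, 5.86, 4.57, 6.03 and 5.18. The groups overlapped over most of their range, the highest value of all belonged to WT replicate 5, and SCC replicate 3 was not well above background. The difference was 0.07 with a 95% interval from -0.92 to 1.05 (limma adjusted p = 0.911, exact permutation p = 0.857), an interval that holds changes close to 2-fold in either direction. Its direction turned when any of WT replicates 3 and 4 and SCC replicates 2 and 4 was left out.

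Resp18 encodes a secretory pathway protein of endocrine and neural cells whose expression in pituitary is regulated by dopamine. Its levels were 5.92, 5.20, 5.32, 4.04 and 5.83 in WT and 5.08, 6.01, 1.68, 6.17 and 5.33 in SCC. SCC replicates 2 and 4 lay above all WT lungs, while replicate 3 lay below every other sample and was not well above background. The difference was -0.41 with a standard error of 0.80 (limma adjusted p = 0.695, exact permutation p = 0.810), and without SCC replicate 3 it was 0.39 (adjusted p = 0.452).

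Uchl1, also known as PGP9.5, encodes a ubiquitin hydrolase abundant in neurons and neuroendocrine cells, and it had the most even difference. In WT its levels were 7.56, 7.97, 7.76, 7.77 and 7.59, and in SCC 5.96, 6.86, 6.0, 6.36 and 5.16. All 5 SCCs lay below all 5 WT lungs, with SCC replicate 2 nearest to them. WT averaged 7.73 ± 0.16 (SD, n = 5) and SCC 6.07 ± 0.63 (SD, n = 5). The difference of -1.66, with a standard error of 0.27 and a 95% interval from -2.26 to -1.06, was a 3.16-fold lower level (limma adjusted p = 0.000773, exact permutation p = 0.00794). No array left out ended this call.

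Syp encodes synaptophysin, an abundant membrane protein of small secretory vesicles. The WT lungs lay close together at 7.24, 7.24, 7.17, 7.29 and 7.39, and the SCCs at 6.03, 6.27, 5.15, 6.02 and 7.93. Of the SCCs, 4 lay below all WT lungs and SCC replicate 5 lay above all of them. The difference was -0.98 with a 95% interval from -1.91 to -0.05 (limma adjusted p = 0.0749, exact permutation p = 0.0476). Without SCC replicate 5 it was -1.40 with a limma adjusted p of 0.000482, which met the rule for a call. The WT values spanned 0.22 and the SCC values 2.77.

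Ncam1 encodes a neural cell adhesion molecule known as CD56, which lies on the surface of neuroendocrine cells, neurons and muscle. Its levels were 7.62, 7.76, 7.39, 6.88 and 7.08 in WT and 6.16, 8.04, 6.32, 6.54 and 6.68 in SCC. SCC replicate 2 was the highest of the 10 arrays, while the other 4 SCCs lay below all WT lungs. The difference was -0.60 with a standard error of 0.34 (limma adjusted p = 0.174, exact permutation p = 0.151), and without SCC replicate 2 it was -0.92 with an adjusted p of 0.00352, which is under 2-fold. Of the other 5 Ncam1 probes, 3 were tested, with differences of 0.36, -0.45 and -0.24 and limma adjusted p of 0.212, 0.261 and 0.692.

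Insm1, a zinc finger repressor required for neuroendocrine differentiation, was at background in nearly every sample. Its values were 2.64, 1.63, 1.63, 2.43 and 3.40 in WT and 1.63, 1.63, 1.62, 2.05 and 2.85 in SCC. The probe was well above background on 0 of 5 WT arrays and on 1 of 5 SCC arrays, which was replicate 5, so it was not tested. Before normalization its signal on that array was 54.1 units of processed intensity, against 2.63 to 9.07 on the other 9.

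Calca had the largest difference above 0 of the 8 tested genes, and it was uneven among the tumours. Its levels were 8.66, 8.41, 8.45, 7.51 and 8.29 in WT and 9.40, 10.73, 8.07, 11.18 and 8.79 in SCC. SCC replicates 2 and 4 lay far above the WT range, replicates 1 and 5 nearer to it but above, and replicate 3 within it. The means were 8.26 ± 0.44 (SD, n = 5) and 9.63 ± 1.31 (SD, n = 5). The difference of 1.37, with a standard error of 0.56 and a 95% interval from 0.12 to 2.63, did not pass the adjusted test (limma adjusted p = 0.0672, exact permutation p = 0.0714), with 4 of 5 SCCs above the WT mean. It met the rule for a call without SCC replicate 3, at 1.76 and an adjusted p of 0.0182, or without SCC replicate 5, at 1.58 and 0.0432. Before normalization the processed intensity of SCC replicates 2 and 4 was 1938 and 2420, against 155 to 470 in the WT lungs and 213 to 585 in the other SCCs.

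The other Calca probe, designed to another RefSeq transcript of the gene, gave a different picture. Calca transcripts are spliced in alternative ways into calcitonin and CGRP messages, and which message each probe reports is not stated in the files. On this probe the levels were 7.47, 7.40, 7.05, 6.04 and 7.32 in WT and 7.52, 8.70, 3.80, 8.23 and 3.40 in SCC. SCC replicates 2 and 4 were again the highest of all samples, replicate 1 lay just above the WT range, and replicates 3 and 5 lay far below it. The probe was well above background on 5 of 5 WT and 4 of 5 SCC arrays. The difference was -0.72 with a 95% interval from -3.08 to 1.63 (limma adjusted p = 0.588, exact permutation p = 0.508), and without SCC replicate 5 it was 0.01. The mean of both probes differed by 0.32 (limma adjusted p = 0.752), so the direction for Calca depended on the probe.

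**Figure D2:**
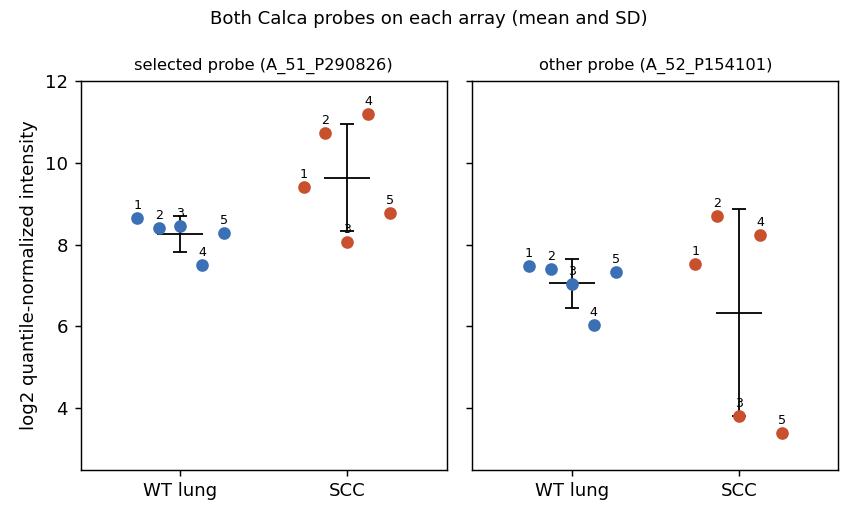
Levels on the selected and the other Calca probe on each array, as log2 quantile-normalized intensity, with the mean and SD of 5 WT lungs and 5 SCCs and replicate numbers beside the points. SCC replicates 2 and 4 are above every WT lung on both probes, while replicates 3 and 5 are below every WT lung on the other probe alone.

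The tumours differed from each other more than the WT lungs did. The SD among SCCs was larger than among WT lungs for Calca, Chgb, Syp, Uchl1, Ncam1, Resp18 and Scg5, by 2.05 to 12.6 times, and smaller for Chga and the undetected Insm1, at 0.84 and 0.71 times. Over all tested genes the median SD was 0.31 in SCC and 0.14 in WT, and among those with a mean level below 8 it was 0.73 and 0.25. After quantile normalization, SCC replicates 2 and 4 had the highest values of Calca, Chga, Chgb and Resp18 among the 5 SCCs, and replicate 2 also those of Scg5, Uchl1 and Ncam1. SCC replicate 2 also had the highest summed level of club and ciliated cell markers among the SCCs, 19.33 against 19.26 to 19.74 in WT and down to 17.20 in the other SCCs. By the mean level over that list replicate 4 was highest, at 14.21 against 14.16 in replicate 2. The summed level of squamous and basal markers was lowest among the SCCs in replicate 2, at 16.22 with the highest at 18.76 and the WT lungs at 7.42 to 7.99. The part of that makeup in the values of the neuroendocrine genes was not tested.

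The place of SCC replicate 5 depended on the scaling. Scaled to the 75th percentile of each array, its level of Uchl1 was 6.98, above the 5.79 to 6.77 of the other SCCs and below the 7.45 to 7.91 of WT, whereas it was the lowest sample after quantile normalization. Chgb there was 5.20 and Scg5 5.39, both within the range of the other SCCs, and Resp18 was 7.07 and Syp 8.44, both above every other sample. With this scaling the differences were -1.68 for Chgb (limma adjusted p = 0.0102), -1.35 for Uchl1 (0.00130) and -1.18 for Scg5 (0.00678), and all 3 met the rule for a call. The difference of Resp18 was 3e-04 and that of Calca 1.43 (adjusted p = 0.0572). Without SCC replicate 5, in the quantile-normalized values, the differences were -1.43 for Uchl1, -0.58 for Ncam1, -0.53 for Resp18 and 0.08 for Chga, of which Uchl1 met the rule for a call (limma adjusted p = 0.000272).

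**Figure D3:**
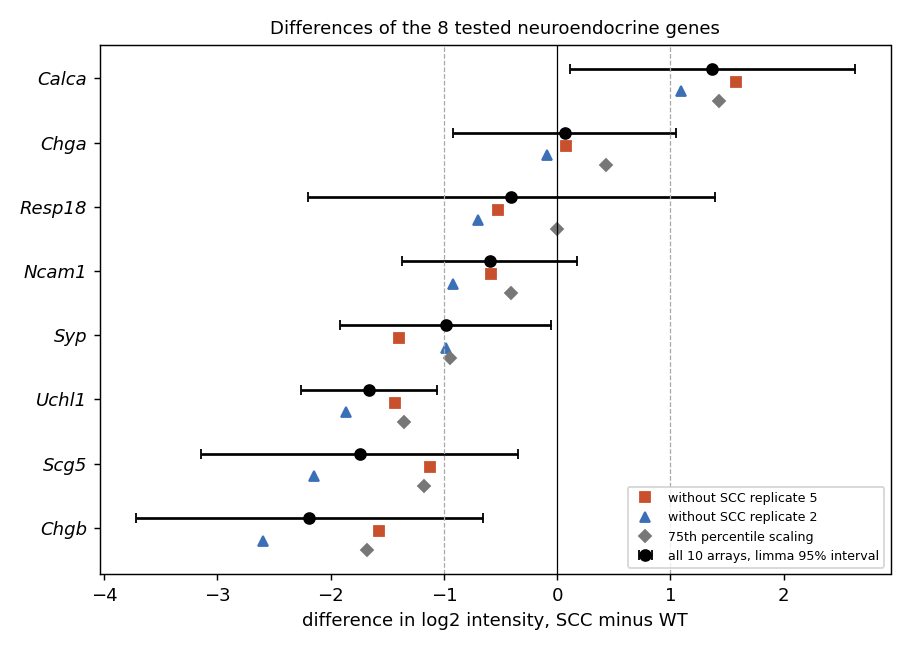
Differences of the 8 tested neuroendocrine genes, SCC minus WT in log2 intensity on the horizontal axis. Black points and bars are limma estimates with 95% intervals over all 10 arrays, coloured and grey symbols are estimates without SCC replicate 5, without SCC replicate 2 or with scaling to the 75th percentile, and dashed lines mark 2-fold. Chgb, Scg5 and Uchl1 stay left of the lower dashed line in each.

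The file names place the arrays on 3 slides. Slide 1 carried WT arrays (replicates 1 to 4), slide 3 carried SCC replicates 4 and 5, and the remaining WT array shared slide 2 with SCC arrays, which were replicates 1, 2 and 3. Within slide 2 the differences, over 1 WT and 3 SCC arrays, were -1.89 for Chgb, -1.32 for Uchl1, -0.88 for Scg5, -1.57 for Syp and -1.57 for Resp18, and 1.11 for Calca. Chga, at -1.55 there, turned direction, since the WT array of that slide had the highest Chga of all. None passed the adjusted limma test within that slide or with slide as a fixed term, where Uchl1 had adjusted p-values of 0.262 and 0.120. At an unadjusted p below 0.05 limma found 1 gene lower within the slide and 3 lower with the fixed term.

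Other cells that use some of these genes were followed through their markers, whose counts stand beside the 24.9% of all tested genes that were called, 13.4% lower and 11.6% higher. Of 10 neuron markers 6 were tested, 3 were called lower (Prph, Elavl4 and Stmn2) and 1 higher (Tubb3), and their summed level, most of it from Stmn2 in WT, was 10.38 to 10.62 in WT and 9.33 to 10.23 in SCC. The mean level over the 10 neuron markers overlapped between the groups, at 4.60 to 4.86 in WT and 4.13 to 5.29 in SCC, where replicate 5 was the highest. Nefl, Nefm and Th, which define neurons of several kinds, were not well above background on any WT array. Of 8 Schwann cell markers 6 were tested and 3 were lower, Prx and Pmp22 among them, with summed levels of 16.36 to 16.48 in WT and 14.44 to 15.01 in SCC. The part of nerve tissue in the lower Chgb, Uchl1 and Scg5 was not tested. Cardiac muscle markers were lower for 9 of 10, with summed levels of 13.98 to 17.50 in WT and 13.29 to 13.87 in SCC. The part of heart tissue in the lower genes was not tested. Of 5 tested tuft cell markers limma called 0, with 0 at an unadjusted p below 0.05, at summed levels of 8.52 to 9.01 in WT and 8.85 to 9.23 in SCC. The skeletal muscle, mast cell, and club and ciliated cell lists had 2 of 7, 2 of 4 and 3 of 6 tested genes called lower, and the mast cell list also 1 higher.

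Further genes that mark lung neuroendocrine cells were read beside the 9. Grp, the gene of gastrin-releasing peptide, lay at 8.39 to 9.38 in WT and 7.50 to 9.35 in SCC, a difference of -0.66 (limma adjusted p = 0.138). Ddc, which encodes the decarboxylase that makes serotonin and dopamine, fell by 3.26 on the log2 scale (limma adjusted p = 0.0026), from 9.10 to 9.77 in WT to 6.01, 8.92, 5.01, 6.22 and 5.10 in SCC, with replicate 2 nearest to WT. Without that replicate the difference of Ddc was -3.92. Scg2 was not well above background on any WT array and was so on 1 SCC array. Of the neuroendocrine genes named here, Insm1 and Scg2 were therefore not well above background on any WT array, and the others of the 9 genes, Grp and Ddc were on every WT array.

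Beyond these genes, 8 lists of secretory, peptide, receptor, adhesion and regulatory genes held 87 measured genes, of which 67 were tested and 29 called (43.3%), 19 higher and 10 lower, against 24.9% called among all tested genes, 11.6% higher and 13.4% lower, which is the share beside which the count of each list below stands. The median difference was 0.36 over these lists and -0.04 over all tested genes. The lists were chosen with earlier results of these data known. Genes called higher such as Ptprn, Npy, Nmu, Grpr, Tph1 and Dlk1 passed the background filter through the SCC arrays alone, where they were high. Dner, called lower, passed through the WT arrays alone. Among probes well above background on all 10 arrays, 20 list genes were called, 11 higher and 9 lower. Over the whole array 5316 such probes were called, 2288 higher and 3028 lower. Among 6 other measured granins and related secretory proteins, 5 were tested and 1 was called in each direction. Pcsk1n, which encodes an inhibitor of the prohormone convertase PC1/3, was higher by 1.08 (limma adjusted p = 0.013), and the neuronal Notch ligand Dner was lower at -1.90 (adjusted p = 0.0356), being well above background on 2 of 5 SCC arrays. SCC replicate 2 lay within the WT range for Pcsk1n, whose difference was under 2-fold without SCC replicate 5, at 0.91, or without replicate 4, while Dner missed the adjusted test with any array left out other than WT replicate 4 and SCC replicates 2 and 4 (adjusted p of 0.0525 to 0.0807). Scg3, which encodes secretogranin III, had a difference of -0.71 (adjusted p = 0.00316), under 2-fold. Of 7 tested prohormone processing genes 2 were called, both higher. The granule membrane protein gene Ptprn was not well above background on any WT array and lay at 9.50, 7.56, 9.56, 9.40 and 9.59 in SCC, at least 33.6-fold higher (limma adjusted p = 7.41e-06). Such a bound sets the SCC mean against the mean, over the WT arrays, of whichever was higher, the lowest level of any probe well above background on that array or the value of the probe itself. Cpe, encoding carboxypeptidase E, which trims the cut peptides, was higher by 1.04 (adjusted p = 0.000651) and under 2-fold without SCC replicate 2 (0.97) or 3 (0.98). The convertase gene Pcsk2, partner of Scg5, had a difference of -0.09 with an interval from -0.34 to 0.15 (adjusted p = 0.495).

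In the vesicle release machinery 11 of 17 genes were tested, 2 called higher and 1 lower, with a median difference of -0.45. The vesicle GTPase gene Rab3d rose by 1.34 (adjusted p = 6.48e-05) and Scamp5 by 1.11 (adjusted p = 0.0108), or 0.81 without SCC replicate 2, which is under 2-fold. Of the 12 neuroendocrine transcription factors and Notch repressors, 5 were tested and limma called 0, with 2 at an unadjusted p below 0.05. Rest, the repressor of neuronal genes, lay at 9.78 to 10.08 in WT and 9.83 to 9.98 in SCC, a difference of -0.05 with an interval from -0.24 to 0.14. Among neural adhesion genes 4 of 8 tested were higher (Dlk1 by 2.03, though well above background on 2 of 5 WT arrays, Cd24a by 1.32, L1cam by 1.20 and Nrcam by 1.06) and 2 lower (Robo2 at -1.98, or -1.36 without SCC replicate 5, and Cadm1 at -1.90). The calls of Cd24a without SCC replicate 2 (0.99) and of L1cam without SCC replicate 5 (0.95) ended because both were under 2-fold. Nrcam lost its call without any of WT replicates 1, 4 and 5 and SCC replicates 3 and 4, with adjusted p of 0.0585 to 0.0734 and differences of 0.87 to 1.06. Of 10 tested CREB coactivators and targets 1 was called, the nuclear receptor gene Nr4a2, higher by 1.56 (limma adjusted p = 0.00115), with a median of -0.25 over the list.

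The peptides and amines changed in both directions, with 5 of 13 tested genes called higher and 3 lower, and a median difference of 0.36. Npy, which encodes neuropeptide Y, was not well above background on any WT array and lay at 9.73, 2.26, 10.31, 10.61 and 9.94 in SCC. SCC replicate 2 stayed at background while the other 4 SCCs were bright, so that the SCC mean was at least 23.1-fold higher (limma adjusted p = 0.00507). With any of the bright SCCs left out, too few arrays read Npy for it to be tested. Nmu, the neuromedin U gene, was at background in WT and at 7.82, 4.92, 7.93, 8.05 and 7.08 in SCC, at least 8.67-fold higher (limma adjusted p = 0.000113). Nmb, encoding neuromedin B, rose by 1.62 (adjusted p = 0.00291), and Tph1, encoding the first enzyme of serotonin synthesis, by 1.70 (adjusted p = 0.00334), well above background on 2 of 5 WT arrays. With Ddc, the vesicular monoamine transporter gene Slc18a2 was lower, at -1.90 (adjusted p = 0.0275), and at -1.27 without SCC replicate 5. It missed the adjusted test without any of WT replicates 2 to 5 and SCC replicate 4 (adjusted p of 0.0508 to 0.0609). Calcb, the neighbour of Calca in function that encodes another CGRP, lay at 6.48 to 7.37 in WT and at 7.79, 5.25, 8.20, 8.57 and 7.21 in SCC, a difference of 0.59 (adjusted p = 0.390). Its order among the SCCs differed from that of Calca, since replicate 2 was lowest for Calcb and next to highest for Calca.

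**Figure D4:**
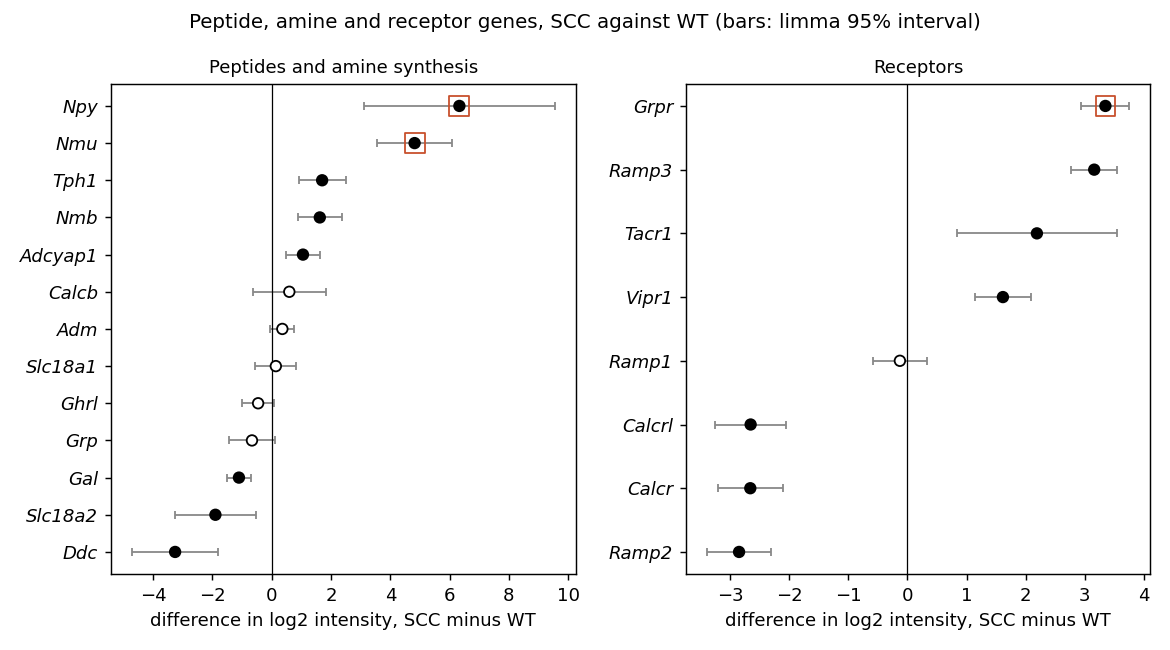
Differences of the tested peptide and amine genes (left) and receptor genes (right), SCC minus WT in log2 intensity, with limma 95% intervals. Filled points met the rule for a call, open points did not, and squares mark Npy, Nmu and Grpr, at background on all WT arrays, whose plotted differences are not bounds. Ramp3 is to the right and Calcrl, Calcr and Ramp2 are to the left of 0.

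Receptors for these peptides were tested for 8 of 9 genes, with 4 higher and 3 lower. CGRP and its relatives act on a receptor made of the Calcrl protein and a partner of the Ramp family, Ramp1 giving the CGRP receptor and Ramp2 or Ramp3 adrenomedullin receptors, and Calcr is the calcitonin receptor. Calcrl lay at 15.77 to 16.04 in WT and 12.59 to 14.29 in SCC, lower at -2.65 (limma adjusted p = 4.9e-05), Ramp2 was lower at -2.85 (adjusted p = 2.11e-05) and Calcr at -2.66 (adjusted p = 3.25e-05). Ramp3 was higher by 3.16 (adjusted p = 2.28e-06), from 8.84 to 9.72 in WT to 12.10 to 12.60 in SCC. Ramp1 had a difference of -0.13 with a 95% interval from -0.58 to 0.32 (limma adjusted p = 0.621). In all 5 SCCs Calcrl, Ramp2 and Calcr lay below and Ramp3 above every WT lung, SCC replicate 5 included. Grpr, the receptor of gastrin-releasing peptide, was at background on all WT arrays and lay at 5.11 to 5.79 in SCC, at least 2.54-fold higher (limma adjusted p = 2.04e-06), and Tacr1, the substance P receptor gene, rose by 2.19 (adjusted p = 0.0136), well above background on 4 of 5 WT arrays and with SCC replicate 5 in the WT range.

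Genes that deviated together with each neuroendocrine gene were searched among genes well above background on all 10 arrays, by Pearson's r of the deviations from the group means. These values describe the 10 arrays, which share the uneven SCC replicate 5, and carry no test. Closest to Calca were Slc30a1 (r = 0.978), Efhc2 (0.967) and Zfp521 (0.951), and closest to Chga were Slc44a1 (0.972), Supt5 (0.969) and Iqce (0.904). Chgb was closest to Tmprss5 (0.983), Kctd8 (0.977) and Osbpl6 (0.972), and Resp18 to Ccdc113 (0.951), Preb (0.95) and Rabep2 (0.927). Syp was closest to Ifi205 (0.976), Ms4a4c (0.972) and Pcsk4 (0.969). Uchl1 was closest to Helq (0.988), Nsun6 (0.988) and Unk (0.985), Ncam1 to Pmpcb (0.985), Ano10 (0.978) and Grb14 (0.974), and Scg5 to Zfp420 (0.996), Lipo3 (0.994) and Atrx (0.993).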

How the data were processed

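RNA from 5 WT lungs and 5 SCCs had been hybridised to single-colour Agilent 4 x 44 whole mouse genome arrays. The authors read the scans with Agilent Feature Extraction 12, per the labels, and the deposited scanner files hold a background-subtracted processed intensity, median raw intensities and flags for each spot. The deposited value table holds log2 values, which matched the log2 of the quantile-normalized processed intensity at r of at least 0.9999 on every array. Quantile normalization and log2 follow the study's methods, and limma replaces its analysis of variance. Control and flagged spots were left out, spots of a probe were averaged, and 41174 probes were normalized, 28223 of them paired with a symbol through a RefSeq table (GRCm38.p6). A probe was well above background where at least 0.5 of its spots were flagged so, and it was tested as the report states. Fits used limma 3.58.1 in R 4.3.3, two-sided, over all 10 arrays without covariates, with Benjamini-Hochberg adjustment over 30374 probes, and were tested on simulated data. No probe was saturated, and the number of arrays limits the precision. Promoters came from the same RefSeq release. The genes, lists and tests were chosen with earlier results of these data known. Every one of the 9 genes is named, then up to 6 called genes of each list with the largest differences, and for the tested genes the 3 with the highest r. Other genes of the lists that are named, such as Rest, Pcsk2, Grp and the untested markers, were chosen after their values were seen. Vgf, Iapp, Crtc1, Kit and Cdhr3 had no paired probe. The values of some other list genes are not reported here. The alternatives were scaling to the 75th percentile, normexp with an offset of 50 on the median signals (mean signals were not used here), the deposited table, no filter on dim probes, slide or replicate number as a block, array weights, the t-test to which the methods' analysis of variance reduces for 2 groups (unadjusted p below 0.01, as in the study's gene list, or adjusted), and arrays left out. Same-numbered WT and SCC arrays did not deviate together, with r between -0.10 and 0.01 over the 5 numbers.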

Additional observations from a re-analysis of the deposited data

Results flagged for a closer look

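Among 61 sets of 5 arrays, each a gene in 1 group, 7 held an array whose distance to its nearest neighbour was over 0.71 of the range (Dixon's 95% critical value for 5 samples), and chance gives about 1 in 20. Of these, 2 concerned the 9 genes. Ncam1 was high on SCC replicate 2, with a gap of 0.725 of the range, and Resp18 was low on SCC replicate 3, with a gap of 0.757, where the probe was not well above background. Among the called list genes, SCC replicate 2 was high for Nr4a2 (gap 0.716), Cd24a (gap 0.75) and Scamp5 (gap 0.839) and low for Ptprn (gap 0.907), and SCC replicate 5 was low for Robo2 (gap 0.738). The sets were 18 of the 9 genes and 43 of the named list genes. A list gene entered for a group only where all 5 arrays read it well above background. Npy in SCC, with replicate 2 at 2.26 and the others at 9.73 to 10.61, was therefore not counted.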

How the results depend on the processing

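Of the 9 genes, 3 were called after quantile normalization. With normexp 0 were called. There Chgb (-0.70), Uchl1 (-0.81) and Scg5 (-0.56) passed the adjusted limma test but were under 2-fold, Calca (1.08) had an adjusted p of 0.0526, and 5 genes had an unadjusted p below 0.05. With slide as a fixed block 0 were called and within slide 2, with 1 WT array, 0 (3 and 1 at an unadjusted p below 0.05), with the t-test at an unadjusted p below 0.01 1 gene (Uchl1, lower), with array weights 6 and without SCC replicates 2 and 5 together 5. Leaving out 1 array gave 1 to 5 called genes. The whole array gave 6954 called probes by the main method, 3969 with normexp, 2989 with slide as a fixed block, 0 within slide 2 (5835 at an unadjusted p below 0.05) and 14878 with no fold requirement. The pathway lists gave 29 called genes, and then 15, 14, 0 (21 at an unadjusted p below 0.05) and 47. Without 1 array these ran from 6234 to 8110 probes and from 25 to 29 list genes. Other settings kept each count within 1.5 times. The cause of these changes was not tested.

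With the replicate number as a block, 2 genes were called, Scg5 having an adjusted p of 0.0593, and 6571 probes and 27 list genes. The numbers share no known origin, and the pairing moved no other call among the 9 genes.

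Uchl1 passed the adjusted test in 21 of 23 settings, the main one included, Chgb in 18 of 22 and Scg5 in 10 of 23, and all 3 were lower in each. Chga was negative with normexp (-0.013), slide as a fixed block (-1.55), within slide 2 (-1.55), array weights (-0.029), and without SCC replicates 2 and 5 (-0.12), and it ran from -0.13 to 0.41 without 1 array. Resp18 was positive at the 75th percentile scaling (3e-04) and with normexp (0.012), and ran from -0.74 to 0.39 without 1 array. The other probes of Calca (-0.72) and Ncam1 (0.36) reversed the sign. Probes near background, such as those of Chga, Resp18 and Insm1, limit what the signal can show.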

Other observations

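Cck, the cholecystokinin gene, was too rarely detected to be tested. It was not well above background on any WT array, and in SCC it lay at 8.42, 3.78, 8.97, 2.18 and 8.38, above background on 3 of 5 arrays, with a mean at least 4.95-fold higher. St18, a zinc finger gene of neuroendocrine cells, was also above background on 3 of 5 SCC arrays and on no WT array, with a mean at least 2.48-fold higher. Neurod1, a transcription factor of endocrine and neural cells, was above background on 1 WT array and on no SCC array.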
